A study of Mus musculus with 14 samples.

Results

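Chemokine ligands are small secreted proteins that draw leukocytes along a gradient, and 37 protein-coding genes encoding them were described here, of 49583 genes in the deposited table and 21732 protein-coding genes among them. They were taken by symbol, as protein-coding genes of the GENCODE M21 annotation whose symbol starts with Ccl, Cxcl, Cx3cl or Xcl followed by a digit. A further 3 genes fit the symbol pattern but are annotated as pseudogenes of some kind and were left out.

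Each ligand acts through G protein-coupled receptors named after the spacing of its first cysteines (CC, CXC, CX3C or C). Inflammatory ligands are switched on within a short time in stimulated myeloid cells and lymphocytes. Homeostatic ligands are made mostly by stromal and epithelial cells and place lymphocytes in tissues.

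The study sequenced RNA of 7 cell populations from wild type C57BL/6 mice, with 2 samples of each and 14 in all. Spleen Ter cells carry the erythroid antigen Ter-119, lack CD45 and lineage antigens (Ter-119+CD45-Lin-), and came from the spleens of mice with tumors. CMP (common myeloid progenitors, labelled c-Kit+FcγRlo CD34- Lin- IL-7R- Sca-1-), MEP (megakaryocyte-erythroid progenitors, labelled the same but CD34+), HSC (hematopoietic stem cells, c-Kit+Sca-1+Lin-) and CLP (common lymphoid progenitors, which carry IL-7R as well) came from bone marrow. Liver Ter cells were gated like spleen Ter cells, from embryonic liver at E14.5, and the control is the CD45+Ter-119- fraction of the spleen of mice with tumors. The labels give a purity above 98% for every group, name no tumor type, and do not say whether both samples of a population come from different mice, so p-values measure the spread between samples, which may be technical. No sample of spleen Ter cells from mice without tumors was analysed here.

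The table lists mean FPKM (fragments scaled by exon length and by sequencing depth) per group. For spleen Ter, CMP, MEP and liver Ter the digits of each mean allowed the 2 libraries behind it to be worked out, called A (the deeper) and B. Their depth ran from 13413530.5 to 28537889 fragments, and 35 of the 37 ligands could be split this way (not Cxcl14 and Ccl28, both under 1 FPKM everywhere). HSC, CLP and control are means with no error, made by another procedure, so their values are set beside the rest without a fold or a test. The spleen Ter libraries stand apart: on the log2(FPKM + 1) scale, which shrinks low genes, 22.0% of the genes tested differed more than 2-fold between A and B, against 2.0% in CMP, 1.0% in MEP and 0.7% in liver Ter. Some columns go against their labels. Cd34 was at 29.7 FPKM in the column labelled CMP (gated CD34-) and 0.0694 FPKM in the column labelled MEP (gated CD34+), which held S100a9, a neutrophil protein, at 84794 FPKM and the erythroid factor Gata1 at 0.928 FPKM. The spleen Ter column, gated to lack lineage antigens, held Cd79a (B cells) at 590 FPKM and Cd3d (T cells) at 91.8 FPKM, with the globin gene Hbb-bs at 22394 FPKM. In these bulk samples, fewer cells of a type and less RNA per cell cannot be told apart.

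The sequences just upstream of 4 ligand genes are shown first. Cxcl1, Cxcl2 and Cxcl3 are neighbours on chromosome 5 with their highest mean in spleen Ter, and Cxcl10 is an interferon-induced ligand with another pattern. Each run is the 250 bases before the RefSeq start of the gene (GRCm38.p6, 5′ to 3′ on the gene's strand). Capitals mark matches on either strand to a loose NF-κB site (GGG, any 5 bases, CC), a loose interferon response element (GAAA, any 2 bases, GAAA) and the AP-1 site TGANTCA; where 2 matches overlap, the capitals run on.
Cxcl2, chr5:90903649-90903898, plus strand: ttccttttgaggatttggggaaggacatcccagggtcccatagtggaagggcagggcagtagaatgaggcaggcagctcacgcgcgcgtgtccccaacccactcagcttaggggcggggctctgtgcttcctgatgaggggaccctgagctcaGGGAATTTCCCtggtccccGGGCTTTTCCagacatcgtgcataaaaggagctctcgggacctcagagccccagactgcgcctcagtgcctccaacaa
Cxcl3, chr5:90785851-90786100, plus strand: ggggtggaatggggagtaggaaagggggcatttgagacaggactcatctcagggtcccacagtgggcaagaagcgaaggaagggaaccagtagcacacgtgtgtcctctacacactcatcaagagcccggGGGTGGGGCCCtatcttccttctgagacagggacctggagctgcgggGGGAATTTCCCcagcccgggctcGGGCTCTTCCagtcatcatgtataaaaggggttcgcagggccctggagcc
Cxcl1, chr5:90890995-90891244, plus strand: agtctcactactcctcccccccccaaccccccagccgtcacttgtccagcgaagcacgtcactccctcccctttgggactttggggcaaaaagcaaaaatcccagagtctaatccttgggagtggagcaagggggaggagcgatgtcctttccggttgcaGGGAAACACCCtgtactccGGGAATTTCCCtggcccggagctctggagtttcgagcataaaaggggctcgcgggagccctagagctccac
Cxcl10, chr5:92348890-92349139, minus strand: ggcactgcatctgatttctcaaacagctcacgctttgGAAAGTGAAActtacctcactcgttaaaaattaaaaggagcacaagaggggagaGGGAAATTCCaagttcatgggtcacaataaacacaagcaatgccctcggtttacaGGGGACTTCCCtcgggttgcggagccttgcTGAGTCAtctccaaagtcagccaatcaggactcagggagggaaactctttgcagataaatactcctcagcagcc

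A narrower form of the NF-κB site (AATTT as the middle 5 bases), chosen after these sequences were seen and always also a match to the loose one, starts 97 bases before the start of Cxcl2, 73 before Cxcl3 and 71 before Cxcl1. Among all 32851 promoters of the table (300 bases each, 250 before and 50 after the start), 29 hold it, which is 0.0883%. Of the 37 ligands, 27 had a promoter in the table. The loose NF-κB site occurred in 15 of the 27 (55.6%), against 50.8% of all promoters, the interferon element in 3 (11.1%, against 3.44%), and TGANTCA in 6 (22.2%, against 7.81%). Ligands are counted here by gene and the background by promoter. Ccl25, Ccl27a and Ccl27b have several promoters, which favours the ligand shares. These matches describe letters and not binding.

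Across the 7 populations the ligand genes fell into a small abundant set and a large near-silent one. A mean of at least 5 FPKM in some column was reached by 10 ligands (Ccl2, Ccl3, Ccl4, Ccl5, Ccl6, Ccl9, Ccl24, Cxcl2, Cxcl10 and Xcl1), 9 more reached 1 to 5 FPKM, and 18 stayed under 1 FPKM in all 7 columns. Of those 18, 10 stayed under 0.1 FPKM, and 5 of these were listed at 0 everywhere. The number of ligands at 1 FPKM or more was 15 in spleen Ter, 9 in CMP, 7 in MEP, 1 in liver Ter, 11 in HSC, 12 in CLP and 10 in the control. Summed over all 37 ligands the mean level was 1246 FPKM in spleen Ter, 353 FPKM in CMP, 150 FPKM in MEP and 6.42 FPKM in liver Ter. The corresponding sums in the other columns were 802 FPKM in HSC, 443 FPKM in CLP and 333 FPKM in the control.

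**Figure D1:**
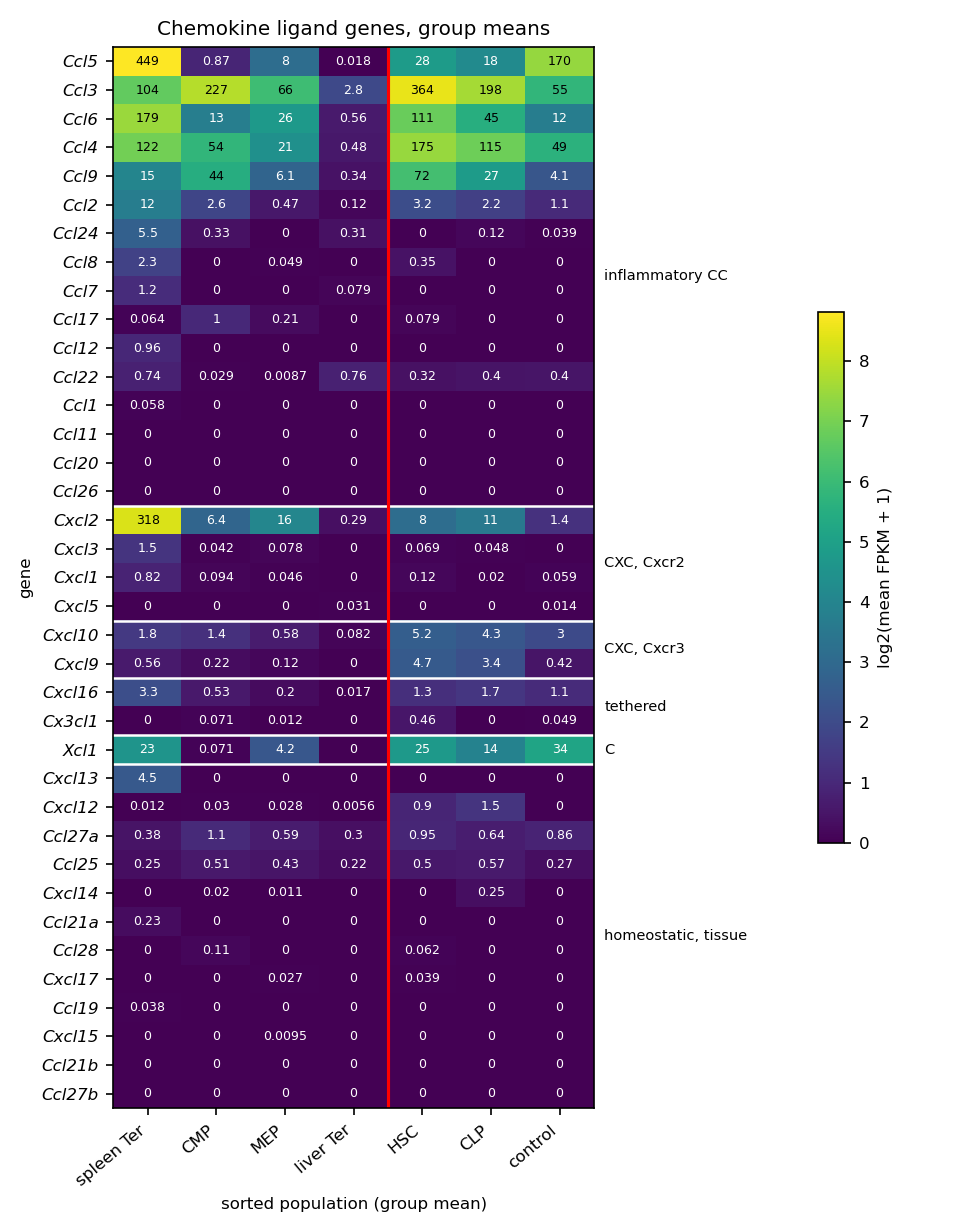
Group mean level of the 37 chemokine ligand genes (rows, grouped by role) in the 7 sorted populations (columns), coloured by log2(mean FPKM + 1) with the mean FPKM printed in each cell. The red line separates the 4 columns whose libraries could be split from the 3 made by another procedure. Spleen Ter has 15 ligands at 1 FPKM or more (40.5%, beside 23.2% of all genes) and liver Ter has 1 (2.70%, beside 14.6%).

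The leading ligand differed between populations. By mean, Ccl5 led in spleen Ter, with 449 FPKM and 36.1% of the ligand sum (in library B, while Cxcl2 led in library A), and in the control, with 170 FPKM and 51.0%. Ccl3 led in all the others, with 227 FPKM (64.3%) in CMP, 66.2 FPKM (44.1%) in MEP, 2.82 FPKM (43.9%) in liver Ter, 364 FPKM (45.4%) in HSC and 198 FPKM (44.7%) in CLP. Spleen Ter was the only one of the 7 columns with Cxcl2 among its first 3 ligands. Of the 17 ligands that reached 1 FPKM in spleen Ter, CMP, MEP or liver Ter, 13 had their highest mean of these 4 in spleen Ter and 4 in CMP (Ccl3, Ccl9, Ccl17 and Ccl27a). No share of all genes by highest column was computed, so these counts have no background.

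The ligands also differed by position. The 5 CC genes between chr11:83525778 and chr11:83664683 (Ccl5, Ccl9, Ccl6, Ccl3 and Ccl4) all reached 5 FPKM, and together held 868 FPKM in spleen Ter, 338 FPKM in CMP, 127 FPKM in MEP and 4.21 FPKM in liver Ter. Upstream on the same chromosome, the group of 6 from chr11:82035571 to chr11:82305690 (Ccl2, Ccl7, Ccl11, Ccl12, Ccl8 and Ccl1) held 17.0 FPKM in spleen Ter, 2.60 FPKM in CMP, 0.516 FPKM in MEP and 0.195 FPKM in liver Ter, and 3 of its genes stayed under 1 FPKM everywhere. In the chromosome 5 group of Cxcl5, Cxcl3, Cxcl15, Cxcl1 and Cxcl2, nearly all of the 320 FPKM in spleen Ter came from Cxcl2.

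For the tests, limma was fitted to log2(FPKM + 1) of the 8 libraries over all 12601 genes with at least 1 FPKM in 2 of them, and a gene was called at a Benjamini-Hochberg adjusted p under 0.05 and a change of at least 2-fold. The added 1 shrinks the fold of low genes. Of the 37 ligands, 11 passed the filter (Ccl2, Ccl3, Ccl4, Ccl5, Ccl6, Ccl9, Cxcl2, Cxcl10, Cxcl13, Cxcl16 and Xcl1). Cxcl13 and Cxcl16 passed it through spleen Ter alone, so their calls against the other groups were favoured by the filter. Ccl3 was the only ligand at 1 FPKM or more in a liver Ter library. The rest passed through other groups, which favoured calls as higher than liver Ter over calls as lower.

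In spleen Ter against liver Ter, all 11 ligands tested were called higher and none lower, beside 43.0% of all genes tested called higher and 11.4% called lower (54.4% either way). Both spleen Ter libraries lay above both liver Ter libraries for all 11, as they did for 63.2% of all genes, with 19.5% the other way. The ligands' median log2 fold change was 4.58, or 5.23 with the 2 ligands at 0 in liver Ter (Xcl1 and Cxcl13) set to their lower bounds, and the median over all genes tested was 0.80. Of all calls in this comparison 79% were higher, but 51.9% were under a median-of-ratios scaling and 65.6% with library totals that leave out the globin genes; the median of all genes was then 0.08 and 0.45. Under these scalings 10 and 11 ligands were called, all higher. The comparison against MEP called 9 ligands higher and none lower, beside 23.5% and 19.1% of all genes (42.6% either way), while Ccl3 and Cxcl10 were not called. The libraries lay apart, higher in spleen Ter, for 10 of the 11, beside 40.7% of all genes (34.5% lower). The ligand median there was 2.26 (2.36 with Cxcl13 at its bound), and 0.11 over all genes.

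In spleen Ter against CMP the ligands split: 7 were called higher (Ccl2, Ccl5, Ccl6, Cxcl2, Cxcl13, Cxcl16 and Xcl1), 2 lower (Ccl3 and Ccl9), and Ccl4 and Cxcl10 were not called, beside 14.3% of all genes called higher and 27.8% lower (42.0% either way). The libraries lay apart for 8 ligands higher and 2 lower, beside 24.8% and 48.9% of all genes. The ligand median was 1.82, and -0.39 over all genes. Of all calls 33.9% were higher, but 57.5% were with median-of-ratios scaling and 41.4% without globin totals, and under median-of-ratios scaling 7 ligands were called higher and none lower. In CMP against MEP, 4 ligands were called higher (Ccl2, Ccl3, Ccl4 and Ccl9) and 2 lower (Ccl5 and Xcl1), beside 24.3% and 7.36% of all genes (31.7% either way). The libraries lay apart for 6 ligands higher and 3 lower, beside 60.2% and 22.8% of all genes. The ligand median was 0.33 and that of all genes 0.41. Of all calls 76.8% were higher, against 38.8% with median-of-ratios scaling, under which 1 ligand was called higher (Ccl9) and 3 lower (Ccl5, Ccl6 and Xcl1). The 3 comparisons that involve spleen Ter share its libraries, and their counts of ligands called higher include Cxcl13 and Cxcl16, which the filter favoured.

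**Figure D2:**
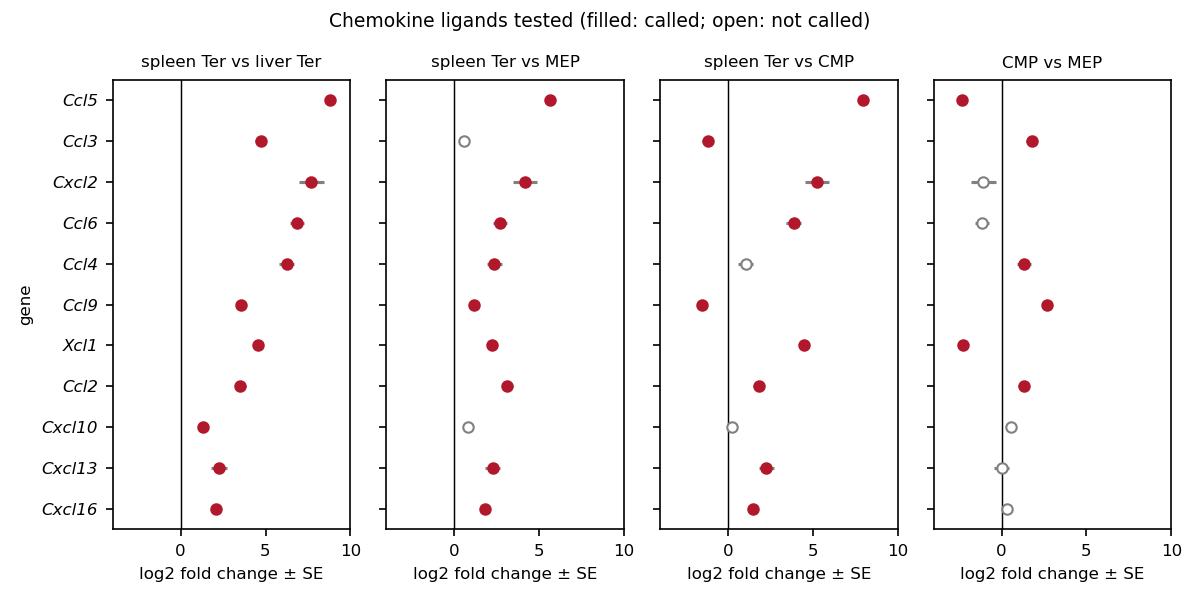
Log2 fold change (x axis, on log2(FPKM + 1), with bars for the standard error) of the 11 ligands tested (rows) in the 4 comparisons; filled points were called by limma and open ones were not. Against liver Ter all 11 points are filled and to the right of 0, and against CMP Ccl3 and Ccl9 lie to its left.

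Ccl5 (ENSMUSG00000035042, chr11:83525778-83530518, minus strand), also called RANTES, draws T cells and monocytes and is made above all by T and NK cells. Libraries A and B held 455 and 444 FPKM in spleen Ter, 1.42 and 0.311 FPKM in CMP, 7.19 and 8.72 FPKM in MEP, and 0.0365 and 0 FPKM in liver Ter, which is a single fragment. The means elsewhere were 27.8 FPKM in HSC, 17.7 FPKM in CLP and 170 FPKM in the control. Spleen Ter was high in both libraries, which nearly agreed, with no overlap with the other 3 groups. The log2 fold change of spleen Ter was 7.98 ± 0.29 (SE) against CMP (limma adjusted p = 1.54e-05) and 5.66 ± 0.29 against MEP (3.14e-05). Against liver Ter the ratio of pooled fragments per total was 19880 (exact 95% interval 3567 to 785200), which covers counting error only.

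Xcl1 (ENSMUSG00000026573, chr1:164931644-164935527, minus strand), the lymphotactin that draws Xcr1+ dendritic cells and is made by NK and CD8 T cells, had the same order as Ccl5 over spleen Ter, MEP, CMP and liver Ter, but not over the other columns. Its level was 23.0 and 22.7 FPKM in spleen Ter, 0 and 0.143 FPKM in CMP, 3.18 and 5.24 FPKM in MEP, and 0 and 0 FPKM in liver Ter, where 3 fragments per library would be 0.201 and 0.327 FPKM. HSC had 25.3 FPKM, CLP 14.2 FPKM and the control 34.1 FPKM, the highest value in the table for this gene. Xcl1 was at least 86.7-fold higher in spleen Ter than in liver Ter (against 3 fragments per library), and its log2 fold change against MEP was 2.23 ± 0.23 (limma adjusted p = 0.000302). Against CMP, with 1 fragment there, the ratio was 336 (exact 95% interval 59.9 to 13300). Between CMP and MEP, Ccl5 was lower in CMP by a log2 fold change of -2.32 ± 0.29 (limma adjusted p = 0.0011) and Xcl1 was called lower too (0.000526). An antisense transcript, Gm20743, shares 18.7% of the exonic bases of Xcl1, and since no source states that counting used strand, reads of the pair cannot be told apart.

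The summed level of T and NK cell markers followed these 2 ligands only in part. All 8 markers listed for those cells were at 1 FPKM or more in spleen Ter, where their levels summed to 588 FPKM in library A and 647 FPKM in library B, against 162 and 157 FPKM in CMP, 67.7 and 64.6 FPKM in MEP and 0.918 and 1.43 FPKM in liver Ter. In spleen Ter, Nkg7 alone had 387 and 369 FPKM. The rest were higher in library B, with Klrb1c at 1.36 and 13.9 FPKM and Ncr1 at 2.66 and 11.9 FPKM, whereas Ccl5 and Xcl1 were level. The CMP sum exceeded that of MEP, whereas both ligands were lower in CMP. It came almost wholly from Nkg7 (160 and 157 FPKM), and no other marker reached 1 FPKM there. Apart from Nkg7 and Cd8a, every marker had a higher mean in MEP than in CMP, as both ligands did. Gzma had means of 4.91 FPKM in MEP and 0.467 FPKM in CMP, and Ncr1 2.88 and 0.133 FPKM. Cd8a was near 0 in both (0.0348 and 0.0666 FPKM). In liver Ter, no mean reached 1 FPKM, though Nkg7 had 0.728 and 1.25 FPKM in libraries A and B, and Cd3e and Cd8a were listed at 0. The mean sum was 103 FPKM in HSC, 48.4 FPKM in CLP and 522 FPKM in the control. Their part in the Ccl5 and Xcl1 results was not tested.

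Cxcl2 (ENSMUSG00000058427, chr5:90903871-90905938, plus strand), the macrophage inflammatory protein that draws neutrophils through Cxcr2, was the highest ligand of spleen Ter in library A and the third in library B. It had 492 and 143 FPKM in libraries A and B of spleen Ter, 8.82 and 4.0 FPKM in CMP, 23.6 and 7.75 FPKM in MEP, and 0.0847 and 0.496 FPKM in liver Ter, beside means of 7.97 FPKM in HSC, 10.9 FPKM in CLP and 1.38 FPKM in the control. In spleen Ter, CMP and MEP library A was the higher, yet the lower spleen Ter library exceeded every library of the other groups. Spleen Ter gave a log2 fold change of 7.71 ± 0.72 (SE) against liver Ter (limma adjusted p = 0.000129), 5.25 ± 0.72 against CMP (0.00103) and 4.18 ± 0.72 against MEP (0.00263). CMP and MEP were not called apart (-1.07 ± 0.72, adjusted p = 0.269).

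Cxcl1 and Cxcl3, paralogs of Cxcl2 that also act on Cxcr2, were far lower and did not pass the filter, but had the same highest column. Cxcl3 (chr5:90786103-90789600) had 2.31 and 0.708 FPKM in spleen Ter, 0.0195 and 0.0639 FPKM in CMP, 0.128 and 0.0285 FPKM in MEP and 0 and 0 FPKM in liver Ter. Cxcl1 had 0.988 and 0.660 FPKM in spleen Ter, 0.109 and 0.0795 FPKM in CMP, 0.0650 and 0.0266 FPKM in MEP and 0 in both libraries of liver Ter. Neither overlapped between spleen Ter and the other 3 groups. The remaining ligand of Cxcr2 on the list, Cxcl5, had 2 fragments in all 8 libraries, both in library B of liver Ter.

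The 8 neutrophil markers summed to 21883 FPKM in spleen Ter, 2627 FPKM in CMP, 141160 FPKM in the column labelled MEP, 246 FPKM in liver Ter, 9655 FPKM in HSC, 13218 FPKM in CLP and 703 FPKM in the control. None of the 8 was at 0 in any column. Mean Cxcl2 was 318 FPKM in spleen Ter and 15.7 FPKM in the column labelled MEP. The part of neutrophils in the Cxcl2 values was not tested. Il1b, a cytokine of activated myeloid cells, was also far higher in spleen Ter (431 and 236 FPKM) than in CMP (12.2 and 1.09 FPKM), MEP (23.6 and 7.60 FPKM) and liver Ter (0.0184 and 0 FPKM).

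**Figure D3:**
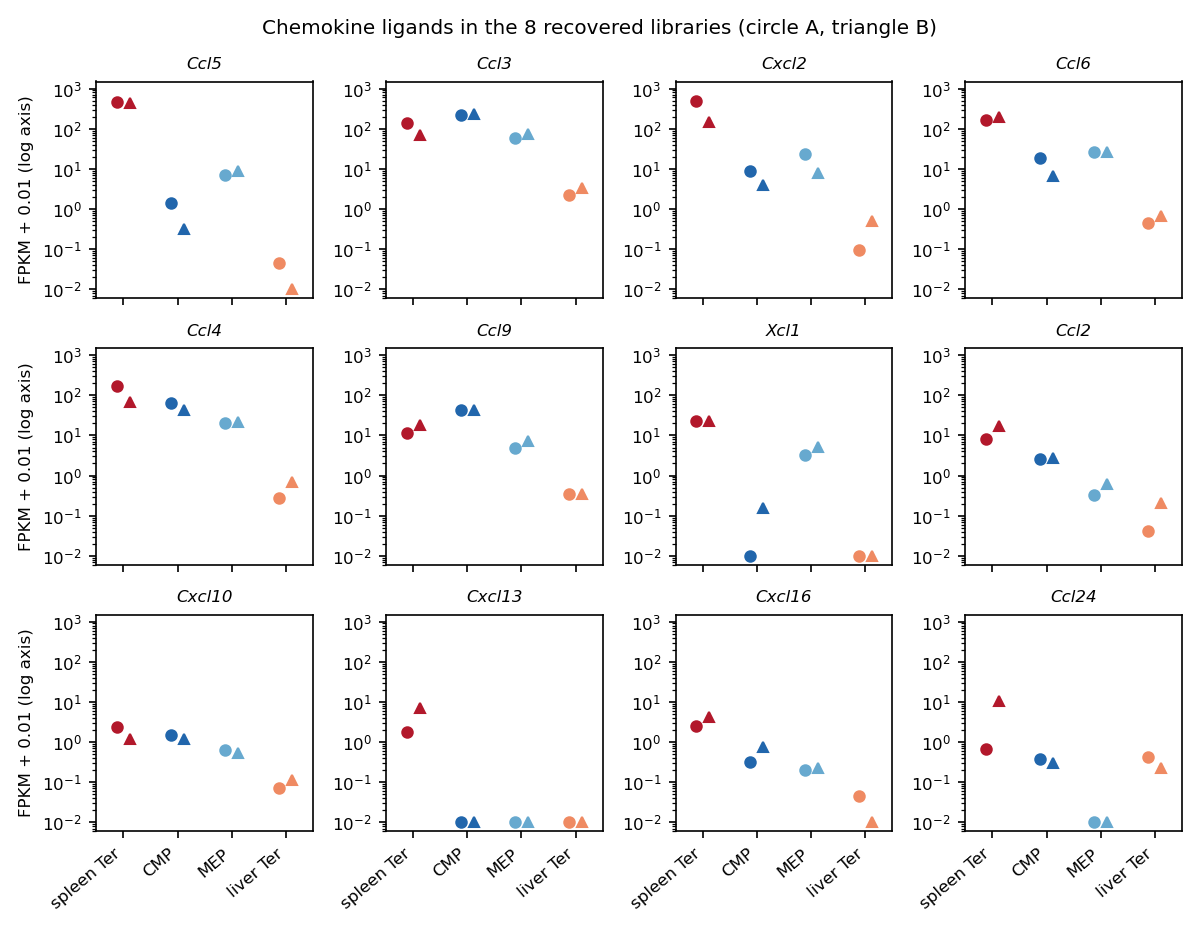
FPKM + 0.01 (log axis) of the 11 ligands tested and Ccl24 in the 8 split libraries of spleen Ter, CMP, MEP and liver Ter; circles are library A and triangles library B, and points at 0.01 are 0 FPKM. Ccl5 and Xcl1 are alike in the 2 spleen Ter libraries, whereas Cxcl2 is higher in A (492 against 143 FPKM) and Ccl24 in B (10.3 against 0.664 FPKM).

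Ccl3 (ENSMUSG00000000982, chr11:83647844-83649355, minus strand) and Ccl4 (ENSMUSG00000018930, chr11:83662584-83664683, plus strand), the macrophage inflammatory proteins 1α and 1β, which draw monocytes and T cells, were found in every population but liver Ter at 20.6 FPKM or more. Ccl3 had 136 and 70.9 FPKM in spleen Ter, 221 and 233 FPKM in CMP, 60.3 and 72.1 FPKM in MEP and 2.29 and 3.35 FPKM in liver Ter, beside 364 FPKM in HSC, 198 FPKM in CLP and 54.8 FPKM in the control. It was the sole ligand at 1 FPKM or more in liver Ter. CMP lay above spleen Ter in both libraries, and spleen Ter overlapped MEP.

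The log2 fold change of Ccl3 in spleen Ter was 4.72 ± 0.31 (SE) against liver Ter (limma adjusted p = 3.22e-05), -1.20 ± 0.31 against CMP (0.015) and 0.57 ± 0.31 against MEP (0.157, not called). The call against CMP ended with median-of-ratios scaling (-0.61, adjusted p = 0.303), without globin totals (-0.99, 0.0354), and without spleen Ter library B (-0.73, 0.0127), CMP library A (-1.24, 0.0643) or CMP library B (-1.16, 0.0766). Without spleen Ter library B, Ccl3 was called higher than in MEP (1.03, 0.00333). CMP against MEP gave 1.77 ± 0.31 (0.00411), which ended with median-of-ratios scaling (1.01, 0.125).

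Ccl4 had 174 and 69.7 FPKM in spleen Ter, 64.6 and 43.8 FPKM in CMP, 20.1 and 21.1 FPKM in MEP and 0.265 and 0.691 FPKM in liver Ter, beside 175 FPKM in HSC, 115 FPKM in CLP and 49.4 FPKM in the control. Spleen Ter was above the other 3 groups in both libraries. Its log2 fold change was 6.25 ± 0.43 (SE) against liver Ter (limma adjusted p = 3.66e-05) and 2.36 ± 0.43 against MEP (0.00328), and 1.04 ± 0.43 against CMP was not called (0.0762) but was without spleen Ter library B (1.69, 0.0015). CMP against MEP gave 1.33 ± 0.43 (0.0406), a call that ended with a pseudocount of 0.1, with no filter, with median-of-ratios scaling (0.58, 0.474) and without any single library of CMP, MEP or liver Ter (adjusted p 0.061 to 0.204). The mean of Ccl4 exceeded that of Ccl3 in spleen Ter (122 against 104 FPKM) and in no other column, but this held in library A alone, since library B had 69.7 FPKM of Ccl4 and 70.9 FPKM of Ccl3.

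Ccl6 (ENSMUSG00000018927, chr11:83587882-83593087, minus strand) and Ccl9 (ENSMUSG00000019122, chr11:83572919-83578636, minus strand) are neighbouring mouse CC ligands of Ccr1 made by myeloid cells, and they stood in opposite order in spleen Ter and CMP. Ccl6 had 160 and 197 FPKM in spleen Ter, 19.0 and 6.48 FPKM in CMP, 26.9 and 26.0 FPKM in MEP and 0.449 and 0.667 FPKM in liver Ter, beside 111 FPKM in HSC, 44.8 FPKM in CLP and 12.3 FPKM in the control. Spleen Ter was above all other libraries. This gave log2 fold changes of 6.85 ± 0.42 (SE) against liver Ter (limma adjusted p = 2.62e-05), 3.87 ± 0.42 against CMP (0.000411) and 2.71 ± 0.42 against MEP (0.00174). CMP against MEP (-1.16 ± 0.42) was not called at an adjusted p of 0.061, and was with median-of-ratios scaling (-1.83, 0.0101), without CMP library A (-1.87, 0.00567) and without spleen Ter library A (0.0463) or B (0.0469).

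Ccl9 had 11.5 and 18.4 FPKM in spleen Ter, 44.0 and 43.7 FPKM in CMP, 4.90 and 7.36 FPKM in MEP and 0.334 and 0.337 FPKM in liver Ter, beside 72.2 FPKM in HSC, 27.4 FPKM in CLP and 4.09 FPKM in the control. CMP was the highest of the 4 and spleen Ter lay between CMP and MEP, without overlap. Its log2 fold change in spleen Ter was -1.52 ± 0.26 (SE) against CMP (limma adjusted p = 0.00271), though -0.94 with median-of-ratios scaling, where the change fell short of 2-fold. It was 3.54 ± 0.26 against liver Ter (5.05e-05) and 1.15 ± 0.26 against MEP (0.00883). The call against MEP ended with median-of-ratios scaling (0.98), without spleen Ter library B (0.84, adjusted p = 0.0106) and without MEP library A (0.90, 0.0646). CMP exceeded MEP by 2.67 ± 0.26 (0.000475).

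Among spleen Ter, CMP, MEP and liver Ter, markers of myeloid progenitors (Mpo, Elane, Prtn3, Ctsg and Cd34) were highest in CMP, as were Ccl3 and Ccl9. Beyond that the orders differed. HSC held more Ccl3 and Ccl9 than CMP but a lower marker sum. MEP had a higher marker sum than spleen Ter but lower means of both ligands. The 5 markers summed to 217 FPKM in spleen Ter, 6587 FPKM in CMP, 1336 FPKM in MEP, 47.0 FPKM in liver Ter, 741 FPKM in HSC, 489 FPKM in CLP and 3.05 FPKM in the control. Of the 5, all were at 1 FPKM or more in CMP and 4 in spleen Ter, and Cd34 was at 0.409 FPKM in spleen Ter. Their part was not tested.

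Ccl2 (ENSMUSG00000035385, chr11:82035571-82037453, plus strand), the main attractant of monocytes through Ccr2, had 8.03 and 16.9 FPKM in spleen Ter, 2.52 and 2.69 FPKM in CMP, 0.321 and 0.613 FPKM in MEP and 0.0308 and 0.20 FPKM in liver Ter. The means were 3.22 FPKM in HSC, 2.22 FPKM in CLP and 1.08 FPKM in the control. The 4 groups did not overlap. Spleen Ter stood at a log2 fold change of 3.52 ± 0.33 (SE) against liver Ter (limma adjusted p = 0.00013), 1.82 ± 0.33 against CMP (0.00332) and 3.12 ± 0.33 against MEP (0.000331). CMP against MEP gave 1.30 ± 0.33 (0.0169), which ended with median-of-ratios scaling (0.77) and without any single library of CMP or MEP (adjusted p 0.0607 to 0.105).

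The neighbours of Ccl2, Ccl7, Ccl8 and Ccl12, are further attractants of monocytes, and were found almost only in spleen Ter. Ccl7 had 0.331 and 2.06 FPKM and Ccl8 had 0.389 and 4.31 FPKM in the spleen Ter libraries, and neither passed 0.0975 FPKM in any library of CMP, MEP or liver Ter. Ccl12 had 0 and 1.92 FPKM in spleen Ter (15 fragments, all in library B) and no fragment in the other 6 libraries. In the other columns Ccl8 had 0.348 FPKM in HSC, and the 3 genes were otherwise listed at 0.

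Ccl24 (ENSMUSG00000004814, chr5:135569937-135573049, minus strand), an eotaxin that draws eosinophils through Ccr3, had 0.664 and 10.3 FPKM in spleen Ter, 0.369 and 0.288 FPKM in CMP, 0 in both MEP libraries and 0.406 and 0.220 FPKM in liver Ter. It was listed at 0 in HSC, 0.119 FPKM in CLP and 0.0391 FPKM in the control. A single library, B of spleen Ter, held 194 fragments of Ccl24, and the other 7 held 0 to 15 each, so it did not pass the filter and was not tested.

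Cxcl10 (ENSMUSG00000034855, chr5:92346638-92348889, minus strand), an interferon-induced ligand of Cxcr3, had 2.38 and 1.19 FPKM in spleen Ter, 1.52 and 1.19 FPKM in CMP, 0.631 and 0.531 FPKM in MEP and 0.0622 and 0.101 FPKM in liver Ter. Its highest means were elsewhere, 5.23 FPKM in HSC and 4.30 FPKM in CLP, with 2.95 FPKM in the control. Spleen Ter and CMP overlapped. Its log2 fold change was 1.33 ± 0.22 (SE) against liver Ter (limma adjusted p = 0.00175), which is 0.53 beyond the median of all genes. With median-of-ratios scaling Cxcl10 did not pass the filter and was not called. It was 0.78 ± 0.22 against MEP (0.021, under 2-fold), though called with a pseudocount of 0.1 (1.40, 0.0241) and without spleen Ter library B (1.10, 0.000612). Against CMP it was 0.21 ± 0.22 (0.441), and -0.10 without spleen Ter library A (0.537). Cxcl9, its neighbour and a ligand of the same receptor, also had its highest means in HSC (4.65 FPKM) and CLP (3.41 FPKM). Unlike for Cxcl10, its control mean (0.424 FPKM) was below that of spleen Ter (0.560 FPKM), and spleen Ter and CMP did not overlap. Cxcl9 had 0.505 and 0.615 FPKM in spleen Ter, 0.317 and 0.124 FPKM in CMP, 0.121 and 0.116 FPKM in MEP and 0 and 0 FPKM in liver Ter. An opposite-strand gene, Art3, shares 5.9% of the exonic bases of Cxcl10.

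Cxcl13 (ENSMUSG00000023078, chr5:95956951-95961068, plus strand) draws B cells through Cxcr5 and is known from follicular stromal cells and some macrophages. It had 1.78 and 7.23 FPKM in spleen Ter and no fragment in the other 6 libraries, and it was listed at 0 in HSC, CLP and the control. Its level was at least 37.6-fold higher than in liver Ter, 38.2-fold than in MEP and 24.2-fold than in CMP (against 3 fragments per library). It was called in all 3 comparisons (limma adjusted p 0.00374 to 0.00489) while both spleen Ter libraries were used. Cxcl13 passed the filter through spleen Ter alone, so these calls were favoured by the filter and add no separate evidence. The stromal markers listed (Col1a1, Col1a2, Pdgfrb and Lepr) were near 0 in spleen Ter, where the 4 summed to 0.171 FPKM in library A and 0.0111 FPKM in library B. Macrophage and monocyte markers summed to 307 FPKM in A and 1072 FPKM in B, and their part in the Cxcl13 values was not tested.

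Cxcl16 (ENSMUSG00000018920, chr11:70453983-70459984, minus strand), a membrane-anchored ligand of Cxcr6, had 2.52 and 4.10 FPKM in spleen Ter, 0.317 and 0.740 FPKM in CMP, 0.188 and 0.214 FPKM in MEP and 0.0348 and 0 FPKM in liver Ter, beside 1.26 FPKM in HSC, 1.65 FPKM in CLP and 1.10 FPKM in the control. Spleen Ter was above all other libraries. Its log2 fold change there was 1.48 ± 0.22 (SE) against CMP (limma adjusted p = 0.00143) and 1.82 ± 0.22 against MEP (0.000585). Cxcl16 too passed the filter through spleen Ter alone, which favoured these calls. Against liver Ter, with 3 fragments there, the ratio was 153 (exact 95% interval 51.8 to 745). Zmynd15, on the opposite strand, shares 18.3% of its exonic bases.

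Between the 2 spleen Ter libraries, 2 of the 11 ligands tested were at least 2-fold higher in A and 2 in B, beside 13.7% and 32.6% of all genes tested, here on FPKM with nothing added. Of the 21 ligands with at least 10 fragments over the pair, 10 of them outside the genes tested, 4 were at least 2-fold higher in A and 6 in B. No share of all genes was computed under that rule, so these counts have no background. The median gene had a ratio of A to B of 0.649. Cxcl2 was 3.44-fold higher in A (exact 95% interval 3.32 to 3.56), Cxcl3 3.26-fold (2.23 to 4.87), Ccl4 2.49-fold (2.28 to 2.73) and Ccl25 16.7-fold (5.40 to 83.5, 52 against 3 fragments). Elavl1, on the opposite strand, shares 2.7% of the exonic bases of Ccl25, so some of these few fragments may belong to it. Cxcl10, at a ratio of 2.0 (1.35 to 3.01), and Ccl3, at 1.92 (1.76 to 2.09), fell just short of 2-fold.

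Ccl24 was 15.5-fold higher in B (8.85 to 29.6), Ccl8 11.1-fold (3.47 to 56.5), Ccl7 6.23-fold (2.14 to 24.7), Cxcl13 4.05-fold (2.71 to 6.23) and Ccl2 2.11-fold (1.71 to 2.60), and Ccl12 was seen in B alone. All 4 monocyte attractants of the Ccl2 group were at least 2-fold higher in B, the side also taken by 32.6% of all genes tested. Of the 4, only Ccl2 was among the genes tested. Ccl5 and Xcl1 were level, at ratios of A to B of 1.03 (0.990 to 1.06) and 1.01 (0.818 to 1.25). These intervals cover counting error only and compare a pair of libraries, not conditions. Most markers of macrophages and monocytes were higher in library B too. Over the 7 of 8 that could be split, the levels summed to 307 FPKM in A and 1072 FPKM in B. Of the 7, 6 were higher in B (C1qb the highest, at 54.6 and 414 FPKM), and the monocyte marker Ly6c2 was higher in A, at 157 and 77.7 FPKM. Of the 5 neutrophil markers that could be split in spleen Ter, 3 were higher in A (Ltf at 577 and 54.1 FPKM, Ly6g at 102 and 16.3 FPKM, Retnlg at 1269 and 1155 FPKM) and 2 in B (Mmp8 at 58.2 and 60.9 FPKM, Csf3r at 34.0 and 47.9 FPKM). All 8 macrophage and monocyte markers reached 1 FPKM in spleen Ter. Their part in the split was not tested.

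**Figure D4:**
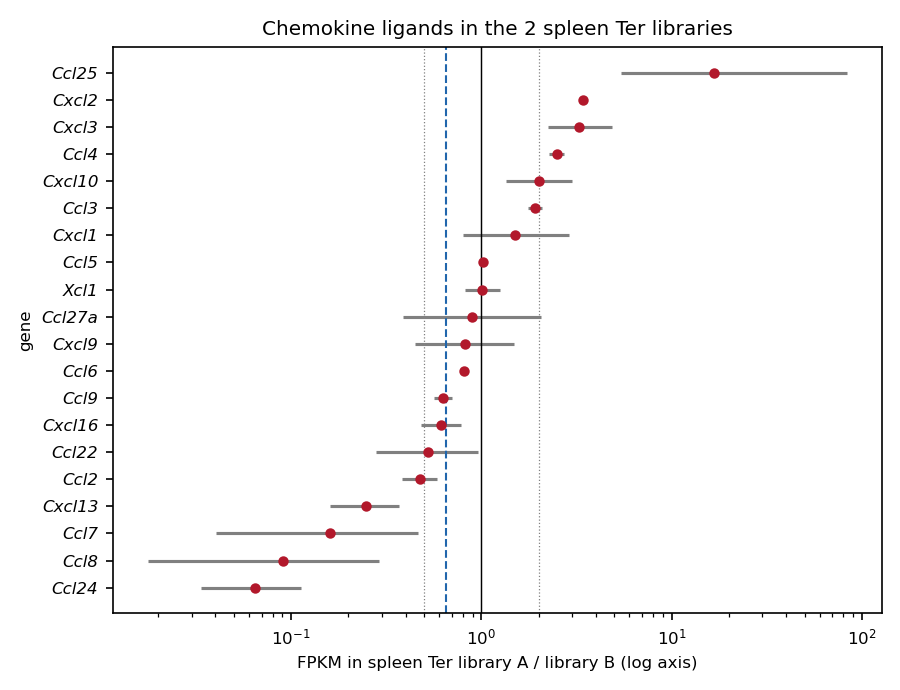
Ratio of FPKM in library A to library B of spleen Ter (log axis, points) with exact 95% intervals of counting error (bars) for 20 ligands; Ccl12, at 0 in A, is not drawn. The solid line is a ratio of 1, dotted lines are 2-fold, and the dashed line is the median gene at 0.649; Ccl25, Cxcl2, Cxcl3 and Ccl4 lie to the right of 2-fold and 5 ligands from Ccl2 to Ccl24 to the left.

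HSC, CLP and the control could be set against each other only as means, with no replicate check. Counting a 2-fold difference with at least 1 FPKM in the higher column, HSC exceeded the control for 7 of 11 ligands and was lower for 1 (Ccl5), beside 22.6% and 14.2% of all genes. CLP exceeded the control for 8 of 12 and was lower for 2 (Ccl5 and Xcl1), beside 23.3% and 14.4%. Of such differences over all genes 61.4% were higher in HSC and 61.8% in CLP, against 44.2% and 45.7% with median-of-ratios scaling. Under that scaling the same 7 ligands stayed higher in HSC, but 5 in CLP, without Ccl2, Ccl4 and Cxcl12.

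Ccl9 was 17.7-fold and 6.69-fold higher in HSC and CLP than in the control, Cxcl9 11.0-fold and 8.04-fold, Ccl6 9.04-fold and 3.65-fold, and Ccl3 6.64-fold and 3.62-fold. Ccl5 was the opposite, at 0.163 and 0.104 of the control level in HSC and CLP. Cxcl12, the ligand of Cxcr4 that retains stem cells in marrow, was at 0.895 FPKM in HSC, 1.51 FPKM in CLP and listed at 0 in the control. Between HSC and CLP, Ccl6 (2.48-fold) and Ccl9 (2.64-fold) were higher in HSC and no ligand was 2-fold lower, beside 6.22% and 5.50% of all genes.

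Of the ligands at 1 to 5 FPKM, spleen Ter was the highest column for Cxcl13, Cxcl16, Ccl8, Cxcl3 and Ccl7, CMP for Ccl17 and Ccl27a, HSC for Cxcl9 and CLP for Cxcl12. Ccl17, a ligand of Ccr4, had 0.129 and 0 FPKM in spleen Ter, 0.930 and 1.16 FPKM in CMP, 0.316 and 0.0969 FPKM in MEP and none in liver Ter. Ccl27a, a ligand of Ccr10 known from skin, varied little, between 0.298 FPKM in liver Ter and 1.06 FPKM in CMP.

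The 13 ligands with some value but under 1 FPKM everywhere were Ccl1, Ccl12, Ccl19, Ccl21a, Ccl22, Ccl25, Ccl28, Cx3cl1, Cxcl1, Cxcl5, Cxcl14, Cxcl15 and Cxcl17, with highest means between 0.00955 FPKM (Cxcl15, in MEP) and 0.960 FPKM (Ccl12). Ccl22, a ligand of Ccr4, was at a like level in the Ter populations, with 0.512 and 0.976 FPKM in spleen Ter and 0.739 and 0.785 FPKM in liver Ter. Ccl25, a thymic ligand of Ccr9, lay between 0.221 and 0.572 FPKM in all 7 columns. Ccl11, Ccl20, Ccl21b, Ccl26 and Ccl27b were listed at 0 in all 7. In the 8 split libraries, 3 fragments, taken as a limit for counting error at a count of 0, would span 0.0740 to 0.793 FPKM. The ends are Ccl20 in liver Ter library A and Ccl26 in CMP library B. No such limit could be given for HSC, CLP and the control. The ligands of homing to lymphoid tissue (Ccl19, Ccl21a and Ccl21b) were at most 0.233 FPKM throughout. The chromosome 4 genes among them belong to near-identical copies, and their values are uncertain.

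Of the 18 receptors listed, 12 passed the filter, 7 of them through spleen Ter alone, so that their calls were favoured by the filter. Among the 12, Cxcr4 alone reached 1 FPKM in a liver Ter library. For the rest the filter favoured calls as higher than liver Ter. In spleen Ter all 12 were called higher than in liver Ter, beside 43.0% of all genes (11.4% lower). Against MEP 8 were called higher and 1 lower, beside 23.5% and 19.1% of all genes. Against CMP 8 were called higher and 3 lower (9 and 2 with median-of-ratios scaling or without globin totals), beside 14.3% and 27.8%. CMP against MEP gave 2 higher and 2 lower, beside 24.3% and 7.36%. The median log2 fold changes were 3.70, 2.07, 2.42 and 0.06 in that order of comparisons, and 3.70 again for the first with the 3 receptors at 0 in liver Ter at their bounds. Without library A or B of spleen Ter only 5 receptors passed the filter, and 5 and 4 were called against liver Ter, all higher. Against MEP 3 were then called without A (1 higher, 2 lower) and 1 without B (lower), and against CMP 3 without A (1 higher, 2 lower) and 5 without B (2 higher, 3 lower).

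Receptors of the abundant ligands took separate patterns. Ccr1, bound by Ccl3, Ccl5, Ccl6 and Ccl9, had 26.3 and 23.9 FPKM in spleen Ter, 8.13 and 2.39 FPKM in CMP, 26.8 and 26.4 FPKM in MEP and 0.223 and 0.322 FPKM in liver Ter. It rose against liver Ter (log2 fold change 4.36 ± 0.42, limma adjusted p = 0.000151) and CMP (2.23 ± 0.42, 0.0041), and was not called against MEP (-0.08 ± 0.42, 0.882). Cxcr2, the receptor of Cxcl2, had 22.1 and 11.1 FPKM in spleen Ter, 9.62 and 1.47 FPKM in CMP, 51.3 and 48.9 FPKM in MEP and 0.264 and 0.168 FPKM in liver Ter. Its highest level was thus in the column labelled MEP, where Cxcl2 was 15.7 FPKM.

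Ccr2, the receptor of Ccl2, had 7.08 and 18.1 FPKM in spleen Ter, 28.1 and 30.3 FPKM in CMP, 2.67 and 4.79 FPKM in MEP and 0.285 and 0.211 FPKM in liver Ter. It was lower than in CMP by a log2 fold change of -1.28 ± 0.42 (limma adjusted p = 0.0356; up to 0.138 with a library left out) and higher than in MEP by 1.43 ± 0.42 (0.0233; up to 0.137). Ccr3, the receptor of Ccl24, had 1.88 and 16.8 FPKM in spleen Ter, so that ligand and receptor were both higher in library B. It did not pass 0.251 FPKM in any library of the other 3 groups, and its mean was 20.8 FPKM in CLP, 6.56 FPKM in HSC and 0.236 FPKM in the control.

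The lymphocyte receptors Ccr7, Ccr6 and Cxcr5 had no ligand above 5 FPKM in any column. Ccr7, whose ligands are Ccl19 and Ccl21, had 181 and 118 FPKM in spleen Ter, 0.656 and 0.113 FPKM in CMP, 0.534 and 0.529 FPKM in MEP and 0 in both liver Ter libraries, beside 476 FPKM in the control. Ccr6, the receptor of Ccl20, had 17.9 and 29.6 FPKM in spleen Ter and at most 0.135 FPKM in a library of the other 3 groups, beside 13.3 FPKM in the control. Cxcr5, the receptor of Cxcl13, had 12.4 and 16.6 FPKM in spleen Ter and at most 0.224 FPKM in those libraries, beside 69.8 FPKM in the control. The 4 B cell markers summed to 982 and 1269 FPKM in spleen Ter, 25.7 and 14.8 FPKM in CMP, 33.5 and 34.7 FPKM in MEP and 1.34 and 1.51 FPKM in liver Ter, with means of 361 FPKM in HSC, 485 FPKM in CLP and 1538 FPKM in the control. In HSC and CLP the receptors were low, with Ccr7 at 5.92 and 7.85 FPKM and Ccr6 at 0.212 and 0.193 FPKM. The part of B cells in these values was not tested.

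Cxcr4, the receptor of Cxcl12, ran the other way. It had 18.9 and 33.3 FPKM in spleen Ter, 104 and 88.1 FPKM in CMP, 81.9 and 100.1 FPKM in MEP and 0.988 and 1.32 FPKM in liver Ter, beside 165 FPKM in HSC, 98.9 FPKM in CLP and 96.2 FPKM in the control. The log2 fold change in spleen Ter was -1.89 ± 0.27 (SE) against CMP (limma adjusted p = 0.00134), -1.81 ± 0.27 against MEP (0.00152) and 3.60 ± 0.27 against liver Ter (5.69e-05). Ackr1, the atypical erythroid receptor that binds inflammatory chemokines without signalling, had 3.39 and 0 FPKM in spleen Ter, 0 in both CMP libraries, 0.0289 and 0 FPKM in MEP and 46.2 and 49.6 FPKM in liver Ter. Against liver Ter its log2 fold change was -4.54 ± 0.61 (limma adjusted p = 0.000647). Ccrl2, a non-signalling receptor, had 22.2 and 21.5 FPKM in spleen Ter, 4.08 and 2.50 FPKM in CMP, 5.24 and 3.70 FPKM in MEP and 11.3 and 11.7 FPKM in liver Ter.

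**Figure D5:**
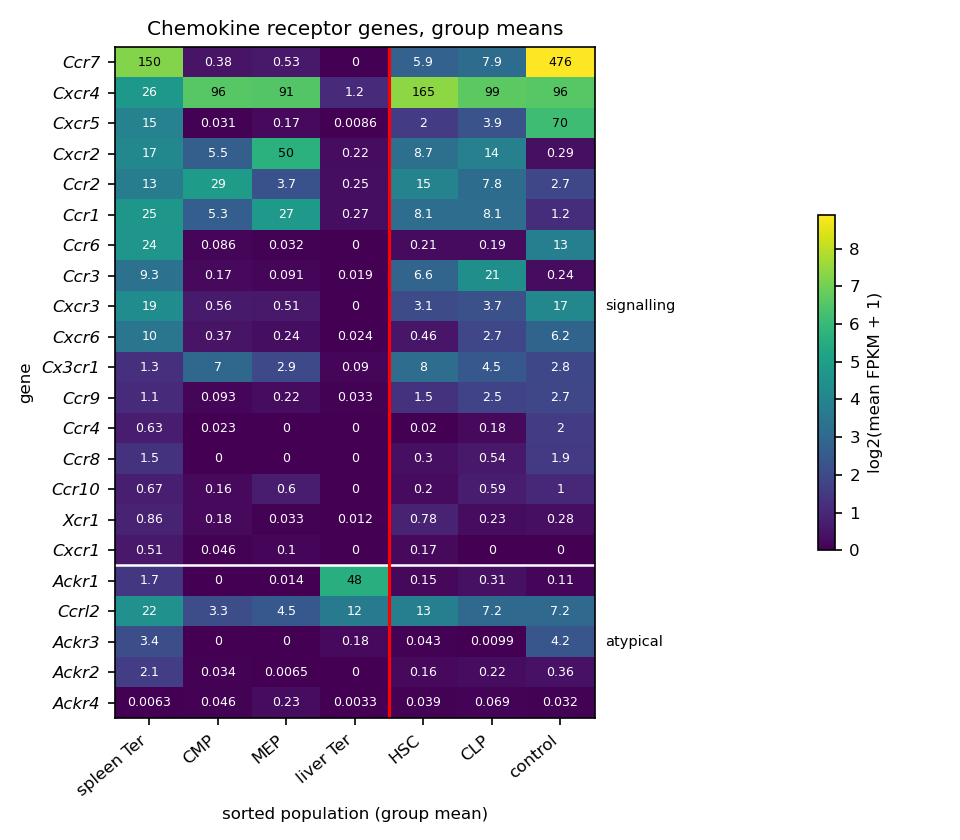
Group mean level of 17 of the 18 signalling and of the 5 atypical chemokine receptors (rows) in the 7 populations (columns), coloured by log2(mean FPKM + 1) with the mean FPKM in each cell; the red line separates the columns as before. Ackr1 is highest in liver Ter (47.9 FPKM), Cxcr2 in MEP (50.1 FPKM), Ccr2 in CMP (29.2 FPKM) and Ccr7 in the control (476 FPKM).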

How the data were processed

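The deposited table holds 1 column of FPKM per group, which the authors averaged over 2 samples; the unit was read from the values. Reads were aligned to mm10, per the submitters' processing notes; aligner and counter are not stated in those notes or labels. Genes were matched by ID to GENCODE M21 for symbols and positions (49324 of 49583 genes). In 4 columns each mean equals 2 whole fragment numbers, each divided by its library's total. The totals that gave such matches matched 64.5% to 82.8% of 600 genes used to find them (next best totals, 1.33% to 13%). Of 14049 genes with at least 1 FPKM there, 13402 (95.4%) were split, within 5.3e-07 of the mean; 33.4% to 64.8% of a library's fragments fall in these genes. The split accepts only such matches and so does not check itself. HSC, CLP and control could not be split, and comparisons across these and the other columns were not tested. The libraries carry no replicate number.

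R 4.3.3 with limma 3.58.1 fitted log2(FPKM + 1); the moderated fit, with a mean trend, used 1 coefficient per group and 1 shared spread, with 4 residual and 2.61 prior degrees of freedom. That spread pools the 4 groups, so standard errors can be too small for spleen Ter, whose libraries differed most. Ligands are named by level: at least 5 FPKM in a column with every value, 1 to 5 FPKM by highest column, lower ones by name; receptors from 20 FPKM. The ligands, lists and rules were chosen with earlier results of these data known. Alternatives were a pseudocount of 0.1, no filter or 5 FPKM, median-of-ratios scaling, totals without globin genes, and leaving out each library; with a library left out, its group has 1 sample that is assumed to vary like the others. Depth differs between groups, and intervals and the limit of 3 fragments cover counting error only. One receptor counted in the receptor list is not reported here by name.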

Additional observations from a re-analysis of the deposited data

How the results depend on the processing

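Of 540 recomputed values over 44 combinations of ligand and comparison, 507 kept direction and call, 24 lost the call, 8 gained it and 1 changed sign. The last was Cxcl10 in spleen Ter against CMP without spleen Ter library A (-0.10), and up to 0.53 with another library left out. Settings in which a ligand failed the filter gave no value, so calls ended in that way are not among the 24. These were Cxcl10, Cxcl13 and Cxcl16 with the filter of 5 FPKM and Cxcl10 with median-of-ratios scaling. Cxcl13 and Cxcl16 also failed it without either spleen Ter library. The ligands called with a library left out numbered 9 to 11 against liver Ter, 7 to 9 against MEP, 7 to 9 against CMP and 4 to 7 for CMP against MEP. Receptors called ranged from 4 to 12, 1 to 10, 3 to 11 and 3 to 4; the low ends come from leaving out a spleen Ter library, where 5 receptors pass the filter. With a ceiling of 0.1 FPKM, 10 ligands were near 0 in all 7 columns, against 18 at 1 FPKM. No paired analysis was possible because the columns carry no replicate numbers and the split libraries cannot be tied to any. With 2 libraries a group, small folds are not resolved, and counts under about 10 fragments set the low ligands.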

Other observations

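Platelet chemokines that carry other symbols, and so fall outside the ligands chosen by symbol, were also higher in spleen Ter. Pf4 had 38.8 and 53.7 FPKM in spleen Ter, 9.19 and 12.5 FPKM in CMP, 0.225 and 0.0691 FPKM in MEP and 3.16 and 8.07 FPKM in liver Ter. Its log2 fold change in spleen Ter was 1.99 ± 0.38 (SE) against CMP (limma adjusted p = 0.0045) and 5.35 ± 0.38 against MEP (8.84e-05). Ppbp had 17.1 and 24.7 FPKM in spleen Ter, 0 in both CMP libraries, 0.113 and 0 FPKM in MEP and 1.10 and 4.05 FPKM in liver Ter. Of 9 early inflammatory genes tested, 8 were called higher in spleen Ter than in liver Ter and Ier3 was not called, beside 43.0% of all genes called higher and 11.4% lower. Only Ier3 of the 9 reached 1 FPKM in a liver Ter library, so the filter favoured these 8 calls. Against CMP 3 were called higher (Il1b, Cd14 and Icam1, the last with an adjusted p of 0.0499 and up to 0.19 with a library left out) and 1 lower (Nlrp3), beside 14.3% and 27.8% of all genes. Against MEP 3 were called higher (Tnfaip3, Il1b and Icam1) and 1 lower (Tnf), beside 23.5% and 19.1%.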
